A study of Rattus norvegicus with 8 samples.

Results

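Ion channels of the potassium, calcium, sodium, TRP and chloride families were examined in cultured smooth muscle cells of the rat pulmonary artery, before and during exposure to a nitric oxide donor. The genes were taken as every probe set whose platform annotation gives a single symbol starting with Kcn, Cacn, Scn, Trpc, Trpv or Clcn. This gave 138 probe sets for 89 genes, out of 4736 genes with a probe set of 1 symbol. Each gene was represented by the probe set with the highest mean signal over the 8 arrays. The partner subunits that carry the same prefixes (Kcnab, Kcne, Kcnmb, Cacna2d, Cacnb and Cacng) are included. The cells were primary cultures grown out of artery pieces of adult Sprague-Dawley rats after endothelium and adventitia had been removed. They were untreated (control) or exposed for 1, 2 or 4 h to S-nitrosoglutathione (GSNO), which releases nitric oxide. Each of the 4 groups had 2 arrays, numbered 1 and 2, and no group carried a genetic change. The labels name no separate animals, and the series design speaks of 2 preparations of cells without tying them to the array numbers, so p-values may measure a technical spread. The series design gives the GSNO concentration as 100 μmol/L and the treatment protocol gives 100 mmol/L. The control has no stated time in culture, so time and GSNO cannot be told apart.

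Contraction of arterial smooth muscle follows the membrane potential. Potassium channels let potassium leave the cell, hold the membrane negative and keep voltage-gated calcium channels shut, while L-type calcium channels, opened by depolarisation, admit the calcium that drives contraction. Nitric oxide activates soluble guanylate cyclase, and the cyclic GMP-dependent kinase acts on the channel proteins, among them the large-conductance calcium-activated potassium channel. The arrays measured transcripts, not channel protein or current.

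Markers of the labelled cell type were high. Of 10 measured smooth muscle markers, 8 exceeded the array median on both control arrays, with Acta2 at 23826 and 12757. The exceptions were Des and Actg2. All 6 fibroblast markers exceeded it too, with Col1a1 at 11645 and 12243. For endothelium 1 of 5 did (Nos3), for leukocytes 1 of 7 (Cd14), for neurons 3 of 9 (Syp, Syn1 and Th) and for cardiac muscle 2 of 9 (Tnnt2 and Myl2). The summed signal of the neuronal list was 937 to 984 in control and 741 to 764 at 4 h, and that of the cardiac list 714 to 1072 and 483 to 556. The fibroblast list was lower at 4 h as well, 15142 to 17658 against 20519 to 25329 in control. Its members Lum, Col1a1, Col3a1 and Dcn were lower on both 4 h arrays than on both control arrays, while Thy1 and Pdgfra overlapped. Dcn read 170 and 200 in control and 16.0 and 18.5 at 4 h. It was already at 16.1 and 25.9 at 1 h, but at 158 and 372 at 2 h. The summed signals of the smooth muscle, endothelial and leukocyte lists overlapped between control and 4 h. In the neuronal list Snap25 went the other way, from 55.2 and 73.7 in control to 76.3 and 89.2 at 4 h. In the cardiac list Nppb read 211 and 15.1 on the control arrays. The part of these lists in the channel signals was not tested. The median signal of an array lay between 100.0 and 141.2. Arrays numbered 1 (run 1) and arrays numbered 2 (run 2) had separate scan days. In run 1 the 1 h and 4 h arrays belonged to another recorded experiment than the control and 2 h arrays. The labels do not make the arrays of a run matched pairs.

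In untreated cells, most channel genes gave weak signals. Only 19 of the 89 (21.3%) exceeded the array median on both control arrays, against 52.8% of all 4736 genes taken the same way. Another 8 exceeded it on 1 control array and 62 on neither. For 30 genes the signal lay below the 40th percentile of the array on every one of the 8 arrays. The 19 were Kcnmb1, Kcnh3, Cacna1c, Kcnh2, Kcnd3, Clcn3, Cacna1g, Cacna1a, Cacnb3, Cacna2d1, Trpc1, Kcnn1, Cacnb1, Kcnab2, Scn7a, Kcnj1, Cacnb2, Cacng1 and Kcnh4, with mean control signals from 1283 down to 137. They included 5 of 6 calcium channel partners and 3 of 8 calcium pore subunits, but 4 of 27 voltage-gated potassium genes, 1 of 15 inward rectifiers and 1 of 10 voltage-gated sodium genes. Signals of different probe sets are not levels per length, so they do not rank the genes by abundance. Of the 19, 14 exceeded the median on all 8 arrays.

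**Figure D1:**
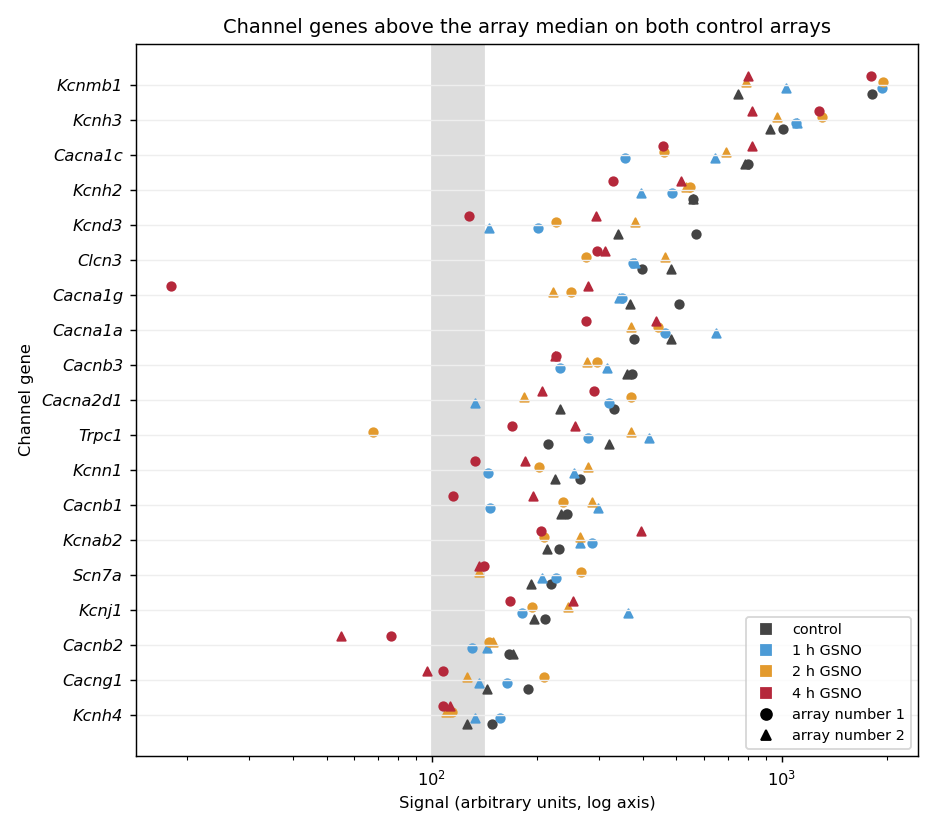
Signal (log axis, arbitrary units) of the 19 channel genes above the array median on both control arrays, with 1 point per array, colour for the group and shape for the array number, and with the grey band from the lowest to the highest array median (100.0 to 141.2). Kcnmb1 splits by array number, and Cacna1g has a single point at 18.0, the 4 h array numbered 1.

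The threshold passed between genes of nearly equal signal. Just above it, Cacng1, a gamma subunit known from skeletal muscle, read 189 and 144 on the control arrays, and Kcnh4, a voltage-gated potassium channel of the Elk group, 149 and 126. Just below it, Kcnh8, of the same group, read 138 and 123, and Kcnq3, a pore subunit of the M current of neurons, 127 and 177.

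Kcnmb1 encodes the beta-1 subunit that raises the calcium sensitivity of the large-conductance potassium channel in smooth muscle. Its signal was 1817 and 749 on the control arrays, 1931 and 1030 at 1 h, 1946 and 791 at 2 h and 1802 and 799 at 4 h (array numbered 1 first, as throughout). The arrays numbered 1 were all above those numbered 2. Within the runs the difference between 4 h and control was -0.01 and 0.09 on the log2 scale. The pore-forming partner Kcnma1 gave 65.6 and 55.2 in control, and none of its 4 probe sets reached the 40th percentile on 2 arrays. The potassium channel genes Kcnh3, best known from brain, and Kcnh2, which carries the delayed rectifier of the heart known as ERG, read 1008 and 927, and 558 and 558, in control. Kcnd3, the pore of a fast transient potassium current, read 570 and 341.

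The other potassium genes above the median were the small-conductance calcium-activated channel Kcnn1 (265 and 225), the beta subunit Kcnab2 (231 and 213) and Kcnj1, known as the potassium secretion channel of the kidney (211 and 196). Of 24 channel genes listed for their known place in arterial muscle, 18 were measured, 8 exceeded the median on both control arrays, 3 others passed the filter on low signals, and 7 did not pass it. Kcna5, a voltage-gated channel known for its sensitivity to hypoxia in this artery, read 58.7 and 117. Kcnj8, the pore of the vascular ATP-sensitive channel, read 56.8 and 17.7, and Trpc4, a receptor-operated cation channel, 95.5 and 57.1. Those that did not pass were Kcnma1, Kcna2, Kcnj2, Kcnk3, Kcnq1, Cacna1h and Trpv1. A weak signal shows only that the probe set did not stand above most others on the array.

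Among calcium channels, Cacna1c, the pore of the L-type channel of vascular muscle, read 800 and 787 in control. Cacna1g, a T-type pore that opens at more negative potentials, read 508 and 368, and Cacna1a, the P/Q-type pore of nerve endings, 379 and 484. The partners that bring the pore to the membrane and shape its gating were above the median as well: Cacnb3 at 373 and 362, Cacna2d1 at 331 and 233, Cacnb1 at 244 and 233 and Cacnb2 at 166 and 171. Outside the potassium and calcium families, the chloride-proton exchanger Clcn3 read 398 and 482, the cation channel Trpc1 214 and 322, and Scn7a, a sodium-sensing relative of the voltage-gated sodium channels, 219 and 192.

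Several of these levels rest on a single probe set. Of the 19 genes, 11 had further probe sets, 16 in all, and 2 of the 16 exceeded the median on both control arrays. Those were the second probe sets of Kcnmb1 (986 and 392) and Kcnab2 (195 and 126). For Cacna1c the other probe sets read 90.8 and 115, and 25.4 and 95.3, for Kcnh2 58.0 and 89.1, and for Kcnh3 210.1 and 83.1. The 3 other Cacna1a probe sets lay between 17.3 and 110.1. The level of these genes therefore depends on which probe set is read. The chosen sets of Kcnh2, Cacna1a and Kcnd3 carry the suffix that the array maker gives to sets matching more than 1 transcript.

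**Figure D2:**
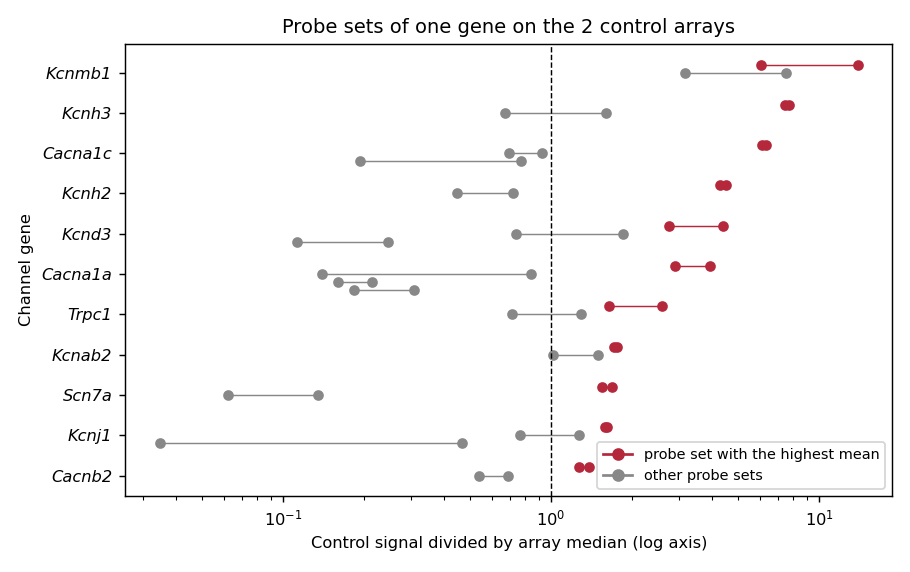
Control signal divided by the array median (log axis) for each probe set of the 11 above-median genes with several probe sets; each line joins the 2 control arrays, red for the probe set with the highest mean over 8 arrays, grey for the others, and the dashed line marks the array median. For 9 of the 11 genes no grey line lies wholly to the right of the dashed line.

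The next question was whether GSNO changed these transcripts. Signals were compared on the scale log2(signal + 21.1), so fold changes of weak probe sets are understated. Probe sets reaching the 40th percentile of the array on at least 2 of the 8 arrays were tested with limma (Benjamini-Hochberg adjustment over 5877 probe sets, threshold 0.05). Of the 89 genes 51 passed this filter. No channel gene passed the threshold at 1, 2 or 4 h, nor in the F test over the 3 times, with limma called in 0 of 51 each time. Over all probe sets 0.527%, 0.97% and 1.53% were called at 1, 2 and 4 h, and 1.14% in the F test. At an unadjusted p under 0.05 there was 1 of the 51 at 1 h (3.01% of all probe sets), 0 at 2 h (6.13%), 5 at 4 h (11.1%) and 2 in the F test (7.84%). In this fit, which leaves the array number out, these shares are no higher than the background.

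The absence of a call leaves room for change. Among the 19 above-median genes, the 95% interval of the log2 fold change lay within 1 (a doubling or halving) on either side of 0 for 7 at 1 h, 12 at 2 h and 3 at 4 h. With a replicate block for the array number, which takes out the difference between the runs, it did so for 15, 15 and 9, and again 0 of 51 channel genes were called against control, while 1.34%, 3.16% and 7.93% of all probe sets were at 1, 2 and 4 h. The F test with the block called 0 of 51 as well, and 5.94% of all probe sets. At an unadjusted p under 0.05 the block gave 4, 1 and 7 of the 51 at 1, 2 and 4 h, and 5 in the F test. The matching shares of all probe sets are not given here, so these counts are not read as a result. For Kcnmb1 the log2 fold change at 4 h was 0.04 (95% interval -1.36 to 1.44; limma adjusted p = 0.994), for Kcnh3 0.08 (-0.57 to 0.73; adjusted p = 0.952) and for Cacna1c -0.36 (-1.25 to 0.53; adjusted p = 0.794). For Kcnab2 it was 0.34 (-0.44 to 1.12), the highest of the 19.

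**Figure D3:**
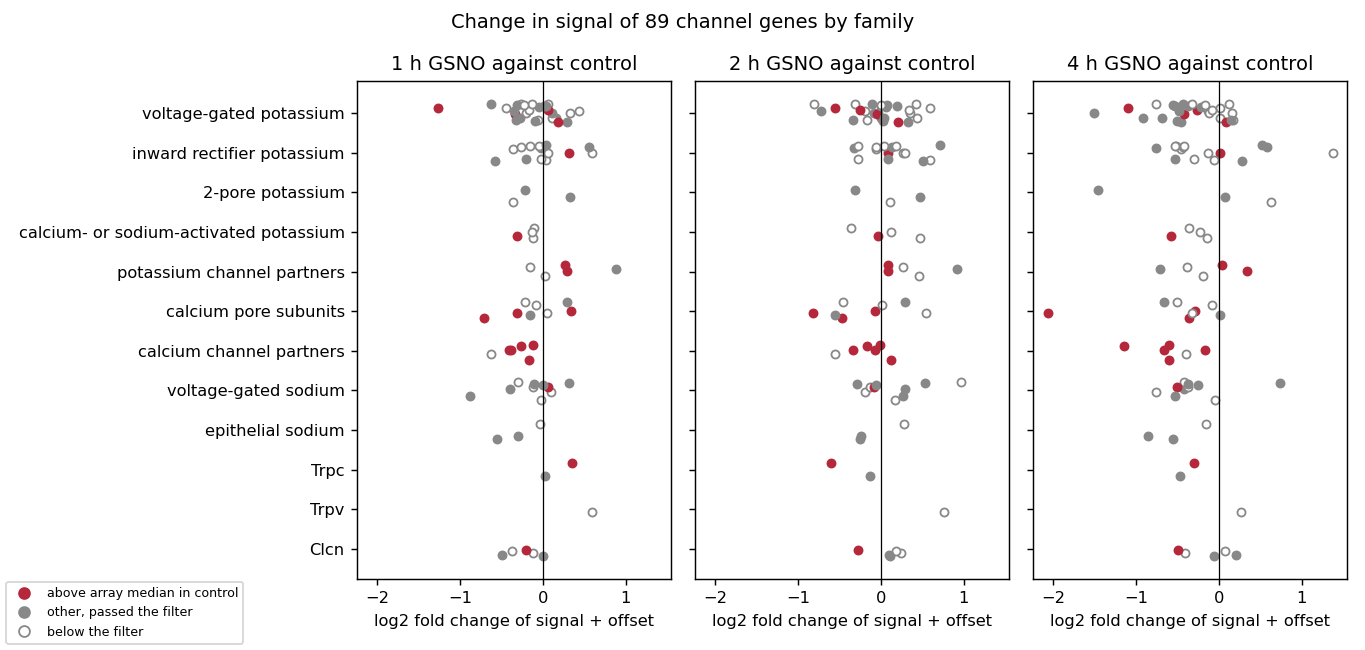
Log2 fold change of signal + 21.1 for the 89 channel genes, by family, at 1, 2 and 4 h of GSNO against control, with 1 point per gene (red above the array median in control, grey other tested genes, open those below the filter), from the mean of 2 arrays against the mean of 2. No point passed the adjusted threshold; at 4 h most points lie left of 0, and the point farthest left is Cacna1g at -2.06.

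At 4 h channel signals were on the whole lower than in control, as were the signals of many other probe sets. Both 4 h arrays lay below both control arrays for 43 of the 89 genes, against 30.4% of all 8740 probe sets, and above for 3 (10.6%). At 1 h the counts were 19 lower (14.7%) and 6 higher (10.1%), and at 2 h 15 lower (13.6%) and 3 higher (13.4%). The low end of the arrays moved too: the 20th percentile of signal was 28.5 and 21.0 on the control arrays and 16.4 and 17.6 on the 4 h arrays. After each signal was divided by its array median, 29 of the 89 were lower at 4 h (19.3% of all probe sets) and 8 higher (17.4%). Of the 19 genes chosen for a high control signal 11 were lower at 4 h, against 28.9% of all probe sets above the median on both control arrays. These 19 were chosen on the control arrays, so a lower later signal is partly built into that count. The part of the low-end shift in these counts was not tested, and in such bulk samples fewer cells of a type and less RNA per cell cannot be told apart.

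The median log2 fold change of the 89 genes at 4 h was -0.36, against -0.18 for all 8740 probe sets. It was -0.45 against -0.24 between the arrays of run 1, and -0.15 against -0.08 between those of run 2. With all arrays scaled to a common median, the values became -0.21 and -0.03, and the median of the 5877 probe sets tested went from -0.16 to 0.04. At 1 h the medians were -0.11 and -0.05, and at 2 h 0.02 and 0.01. At 2 h run 1 gave 0.21 and run 2 -0.08 for the channel genes, and all probe sets split the same way, with 0.08 and -0.05.

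For 5 of 6 calcium channel partners, Cacnb1, Cacnb2, Cacnb3, Cacnb4 and Cacng1, both 4 h arrays were below both control arrays. Over all probe sets the share was the 30.4% given above. After division by the array median, Cacnb4 overlapped and the others stayed lower (19.3% of all probe sets). Cacnb2, a cytosolic beta subunit that traffics the L-type pore to the membrane, went from 166 and 171 in control to 130.2 and 144 at 1 h, 145 and 149.6 at 2 h and 76.3 and 54.9 at 4 h. The 1 h and 2 h arrays also lay below both controls, and the 4 h arrays stood well apart from the other 6, in both runs. Its log2 fold change at 4 h was -1.14 ± 0.31 (SE; limma adjusted p = 0.144), and -0.94 in run 1 and -1.33 in run 2. The adjusted p was 0.0503 with the replicate block, 0.0985 with that block after scaling to a common median, and 0.148 with the recorded experiment as block. The fold change was -0.96 after that scaling. The second Cacnb2 probe set read 90.1 and 66.7 in control and 11.8 and 17.9 at 4 h (-1.46, adjusted p = 0.277).

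Cacnb3, the beta subunit known from smooth muscle, went from 373 and 362 to 226 and 224 at 4 h, with 232 and 317 at 1 h and 297 and 278 at 2 h. The 2 arrays of a group were close in control and at 2 h and 4 h but not at 1 h, and every GSNO array was below both controls. The log2 fold change at 4 h was -0.66 ± 0.26 (SE; limma adjusted p = 0.387), alike in both runs (-0.67 and -0.64), and -0.45 after scaling to a common median. Cacnb1 went from 244 and 233 to 115 and 195, and Cacng1 from 189 and 144 to 107.5 and 96.9. Their log2 fold changes at 4 h were -0.60 each, with limma adjusted p-values of 0.631 and 0.593. Cacnb4, a beta subunit known from brain, did not pass the filter. Cacna2d1 read 291 and 207 at 4 h, and its groups overlapped.

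**Figure D4:**
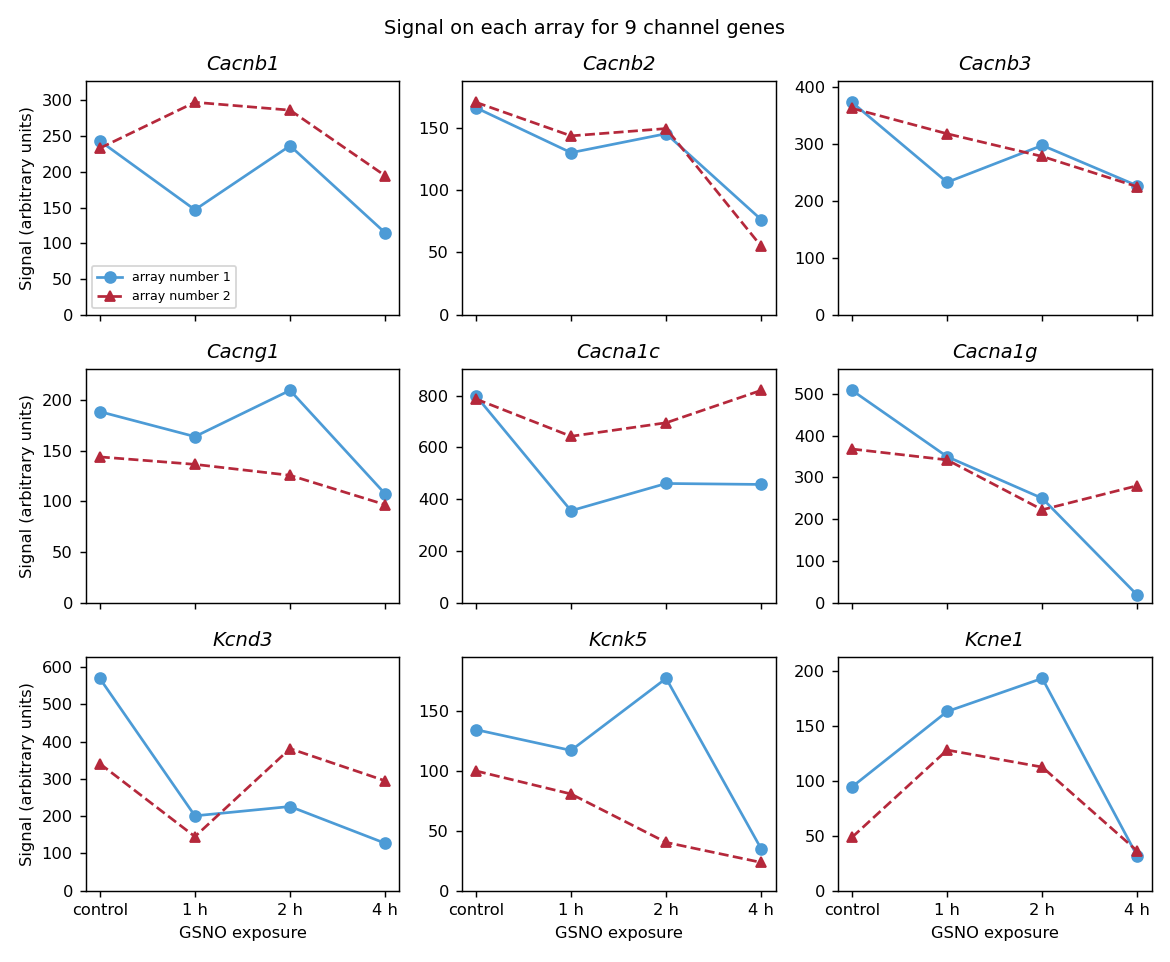
Signal (arbitrary units, axis from 0) of 9 channel genes on each array, with control and 1, 2 and 4 h of GSNO on the horizontal axis and a line for each array number. For Cacnb2 and Cacnb3 both 4 h points lie below all others, while the 4 h arrays disagree for Cacna1g (18.0 and 280.0) and Cacna1c (457 and 821).

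The calcium pores were less alike between the 4 h arrays. Cacna1g read 508 and 368 in control, 349 and 342 at 1 h, 249.8 and 222 at 2 h and 18.0 and 280.0 at 4 h. The 1 h, 2 h and 4 h arrays were all below both controls, but the 4 h arrays differed widely from each other. Its log2 fold change at 4 h was -2.06 ± 0.78 (SE; limma adjusted p = 0.345), made up of -3.76 in run 1 and -0.37 in run 2. Without the 4 h array numbered 2 the value was -3.54, resting at 4 h on the lone array at 18.0. That fit assumed the lone array to vary like the others. Cacna1c read 356 and 643 at 1 h, 461 and 695 at 2 h and 457 and 821 at 4 h. It was below both controls on each array at 1 h and 2 h, and overlapped at 4 h. The log2 fold change at 1 h was -0.70 (limma adjusted p = 1.00).

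Among voltage-gated potassium genes 12 of 27 lay lower at 4 h without overlap and 0 higher, against 30.4% and 10.6% of all probe sets. Of 15 inward rectifiers 5 lay lower and 2 higher. After division by the array median, only Kcna1, Kcna4, Kcnc1, Kcnd3, Kcnh7, Kcnh8 and Kcns1 of the 27 were still lower (19.3% of all probe sets). Kcna3 and Kcns3 were then higher (17.4%). Kcnd3 read 570 and 341 in control, 201 and 145 at 1 h, 226 and 381 at 2 h and 127 and 295 at 4 h. Both arrays at 1 h and both at 4 h were below both controls, while 1 of the 2 h arrays was not. The log2 fold changes were -1.27, -0.55 and -1.09 at 1, 2 and 4 h (limma adjusted p = 1.00, 1.00 and 0.413). A second Kcnd3 probe set read 96.4 and 229 in control and 7.65 and 53.3 at 4 h. Its log2 fold change of -1.89 gave a limma adjusted p of 0.45, 0.0167 with the replicate block and 0.0758 with the recorded experiment as block. The remaining Kcnd3 probe set gave 0.05 and did not pass the filter. Kcna4, another transient-current pore, was the tested family member farthest from 0 at 4 h, with a log2 fold change of -1.50 (limma adjusted p = 0.613). Its signal went from 211 to 11.5 in run 1 and from 23.7 to 18.5 in run 2.

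The 2-pore potassium channels carry background current. Kcnk5, an acid-sensitive member, read 135 and 100.2 in control, 117 and 80.9 at 1 h, 178 and 40.5 at 2 h and 35.0 and 23.7 at 4 h. Both 4 h arrays were below all others, and the runs gave alike values (-1.47 and -1.44). The log2 fold change at 4 h was -1.46 ± 0.56 (SE; limma adjusted p = 0.361, 0.0796 with the replicate block and 0.374 with the recorded experiment as block). Kcnk3, known for its link to pulmonary hypertension, read 34.1 and 26.7 in control and 17.6 and 142 at 4 h, so its 4 h arrays lay on opposite sides of the controls. Kcnj8 did likewise, with 272 and 0.132 at 4 h against 56.8 and 17.7 in control.

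Kcne1, a single-pass subunit that slows the cardiac delayed rectifier, stood on different sides of control at different times. Its signal was 94.4 and 48.6 in control, 163 and 128 at 1 h, 193 and 112 at 2 h and 31.3 and 36.0 at 4 h. Every 1 h and 2 h array was above both controls and both 4 h arrays were below them. Against control, limma adjusted p-values were 1.00, 0.861 and 0.603. Comparing 4 h with 1 h directly, the log2 difference was -1.60 ± 0.42 (SE; limma adjusted p = 0.2), and -1.81 and -1.38 within runs 1 and 2. With the replicate block the adjusted p was 0.0367, which made Kcne1 the single channel gene called in that comparison, where 5.1% of all probe sets were; without the block 0 of 51 channel genes and 0.476% of all probe sets were called, and 3 and 9.04% had an unadjusted p under 0.05. The other Kcne1 probe set read 11.6 and 12.3 in control and did not pass the filter, and Kcnq1, the pore that Kcne1 is known to join, gave 15.9 and 7.48.

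All 4 calcium- or sodium-activated potassium genes, Kcnma1, Kcnn1, Kcnn3 and Kcnt1, lay lower at 4 h without overlap, and Kcnn1 alone of them passed the filter. It went from 265 and 225 in control to 133 and 184 at 4 h (log2 fold change -0.57; limma adjusted p = 0.613). The signals of Kcnn3 and Kcnt1 were at most 16.3 on the control arrays. Of 10 voltage-gated sodium genes 5 lay lower at 4 h and 1 higher. Of 3 epithelial sodium genes 2 lay lower and 0 higher, against 30.4% lower and 10.6% higher over all probe sets. After division by the array median, the only genes of these sodium families still lower were Scn7a and Scn10a (19.3% of all probe sets). Scn4a stayed higher (17.4%). The chloride transporter Clcn3 went from 398 and 482 in control to 297 and 313 at 4 h, without overlap (log2 fold change -0.50; limma adjusted p = 0.613). Trpc1 read 170 and 256 at 4 h and 68.0 and 372 at 2 h, so its arrays disagreed. Scn7a was at 141 and 136 at 4 h, below both controls (-0.51; limma adjusted p = 0.649), and Scn4a, the skeletal muscle sodium channel, at 130.3 and 122, above controls of 111 and 38.5 (0.73; adjusted p = 0.727). Scnn1a, a subunit of the epithelial sodium channel, gave -0.85 (adjusted p = 0.652), Kcnj11, the pore of the ATP-sensitive channel of pancreas and heart, -0.76 (adjusted p = 0.717), and Trpc4 -0.46 (adjusted p = 0.793).

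Genes that work beside these channels were read from 3 lists. None of 21 measured ion pumps and exchangers that passed the filter, of 16 calcium release and other channels, or of 19 channel regulators was called by limma at any time. With the replicate block 0 of the 21 pumps and exchangers were called, while 1 release channel gene fell and 1 connexin gene rose, and 1 regulator fell and 1 rose, all at 4 h, where 7.93% of all probe sets were called with the block. The medians of these lists at 4 h were -0.17, -0.15 and 0.03, against -0.16 for all 5877 probe sets. Itpr1, the inositol trisphosphate receptor that releases calcium from stores, went from 853 and 1201 in control to 327 and 586 at 4 h (-1.17; adjusted p = 0.188, and 0.00521 with the block). Gja4, a gap junction protein, went from 273 and 1352 to 2493 and 4016 (2.33, limma adjusted p = 0.172, and 0.00221 with the block). It was also called at 2 h with the block, where 3.16% of all probe sets were. Ppp3ca, the catalytic subunit of calcineurin, went from 339 and 374 to 653 and 685 (0.87; 0.196 and 0.0444). Rrad, a small GTPase known to bind calcium channel beta subunits and lower calcium current, went from 256 and 234 to 34.6 and 84.0 (-1.80; 0.0852 and 0.0213). For Itpr1, Ppp3ca and Rrad the control and 4 h arrays did not overlap, nor did they for Gja4, whose control arrays differed most. Of all probe sets, 30.4% lay lower and 10.6% higher at 4 h without overlap.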

How the data were processed

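Per the series design, the authors hybridised 8 rat GeneChip arrays and used version 5.0 of the maker's software. What they deposited is an intensity (linear signal) for every probe set. Trimming 2% from both ends left array means of 500.7 to 501.0, so no further scaling was applied. No detection calls were in the table. Of 8799 probe sets 59 control features were left out. Symbols came from GEO's platform annotation: 7018 probe sets had 1 symbol, 308 several and 1473 none here. The gene IDs of all 89 members were found in the RefSeq gene table with 0 symbols changed. No genome was used here.

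The offset of 21.1 is the median over arrays of each array's 20th percentile. The filter left 5877 of 8740 probe sets. Tests used limma 3.58.1 in R 4.3.3 (lmFit, eBayes with a variance trend, all 4 groups in a single fit, two-sided), with tables made in Python 3.11.15. The fit was also run on simulated data with large planted changes and noise independent between arrays. That check does not cover small changes or the shared deviations described next. The number of arrays limits the precision. Same-numbered arrays deviated together from their group means (correlations of 0.387 to 0.569 over the 6 pairs of groups). A fit with the array number as replicate block is therefore given where it changes a call at the adjusted threshold. The block also raised the counts at an unadjusted p under 0.05, for 4 h against 1 h to 7 of 51 channel genes. The arrays numbered 1 and 2 differ in scan day, fluidics protocol and chip lot; 1 array, that of 1 h numbered 1, had a lot of its own. The array records put the control and 2 h arrays numbered 1 in a recorded experiment together, those of 1 h and 4 h numbered 1 in another, and all arrays numbered 2 in the third, so in run 1 the comparisons of 1 h and 4 h with control cross recorded experiments.

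The members and gene lists were chosen with earlier results of these data known. Named were the members above the array median in control, those called with or without the block, those in a list of channels known in arterial muscle, the kept member of each family with the largest change at 4 h, and those next to the median. Other genes were named after their values were seen, as were the second probe sets and the 4 genes outside the families. Alternatives covered the offset, filter, scaling, blocks, samples fitted, variance trend, probe set choice and each array left out.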

Additional observations from a re-analysis of the deposited data

Results flagged for a closer look

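Kcne1 gave a difference between exposure times that passed the threshold with a block and not without. The log2 difference between 4 h and 1 h was -1.60 (95% interval -2.56 to -0.64), lower at 4 h in both runs. The limma adjusted p for this difference was 0.2 without and 0.0367 with a replicate block for array number, and 0.047 when the experiment code in the array records was the block. With the replicate block it was 1 of 51 channel genes called (1.96%), against 5.1% of all probe sets, and with that block and no filter on low signals 0 were called. Between 4 h and 2 h the difference was -1.63 (adjusted p = 0.744, and 0.0907 with the replicate block). Signals ran from 31.3 to 193 and exceeded the array median on 2 of the 8 arrays. Both 4 h signals, 31.3 and 36.0, lay below the 40th percentile of their arrays, 57.2 and 65.9. The reading rests on 1 of 2 probe sets, with the suffix for sets matching more than 1 transcript. With 2 arrays per group no search for single outlying arrays was made within groups.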

How the results depend on the processing

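Without the replicate block, 0 channel genes were called at 1 h, 2 h and 4 h, in the F test and for 4 h against 1 h; halving or doubling the offset, no filter, common median scaling, quantile normalization, no variance trend, only the 2 groups compared and counting any kept probe set also gave 0 in those of the comparisons they apply to. With the replicate block the count was 0 against control and in the F test and 1 for 4 h against 1 h (Kcne1), and the recorded experiment as block also gave 1 there (Kcne1). Leaving out each array in turn gave 0 at 1 h and 2 h, and 0 to 1 at 4 h, in the F test and for 4 h against 1 h, the 1 being Cacna1g without the 4 h array numbered 2. Settings chosen after seeing the data were the replicate block with any kept probe set, which gave 1 at 4 h (Kcnd3) and 1 for 4 h against 1 h (Kcne1), with common median scaling, which gave 1 in the F test and 1 for 4 h against 1 h (both Kcne1), and with no filter, which gave 0. The number of genes above the array level in control was 19 by the median and 29 by the 40th percentile, 27 when either control array sufficed, and 21 to 25 with a single control array. Of 90 fold changes of named genes, 41 kept their sign under every alternative run; of 1530 alternative values 79 had another sign, none of them called. The precision is limited by 2 arrays per group, and for weak probe sets by signals near the low end of the array.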
